A study of Homo sapiens with 8 samples.

Results

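The genes of autophagy and of the lysosome were followed in OAW42-R cells after knockdown of the long noncoding RNA UCA1. Their list held 48 genes, chosen by name and matched to the array through the RefSeq accession of each probe, and it reached from the kinases that start an autophagosome to the hydrolases that digest its content. All 48 had a probe (74 probes in all), and 45 were bright enough to be tested, of 15454 genes tested in total. OAW42-R is a cisplatin-resistant line that was raised from OAW42, a line of serous ovarian cancer, by rising doses of cisplatin, so that all arrays came from 1 derived line and none from its sensitive parent. The sictrl cells received the Lincode Non-targeting Pool, and the siUCA1 cells received the Lincode UCA1 siRNAs number 2 and number 4, in both cases at 20 nM with the reagent INTERFERin and with no cisplatin named in the labels. RNA was hybridised to 8 one-colour Agilent arrays on 1 slide, 4 for each condition, from independent experiments. The labels name the arrays of both conditions A1, M2, A2 and A3 and do not say whether arrays of the same name share an experiment. The labels place RNA extraction at 24 h after transfection, whereas the methods of the study give a longer time.

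Macroautophagy encloses a portion of cytoplasm in a double membrane, the autophagosome, and delivers it to the lysosome for breakdown. A protein kinase complex around ULK1 starts the process, a lipid kinase complex around PIK3C3 and BECN1 marks the growing membrane with phosphatidylinositol 3-phosphate (PI3P), and 2 ubiquitin-like conjugation systems then fix proteins of the ATG8 family (LC3 and GABARAP) to it. Lysosomal proteases, glycosidases and lipid transporters complete the digestion, and many of their genes are targets of the transcription factors TFEB, TFE3 and MITF. Ovarian carcinomas often carry only 1 copy of the chromosome region that holds BECN1, and autophagy has been studied in them as a way to endure chemotherapy.

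Levels are given as log2 of the signal over the 75th percentile of the same array, so that a difference of 1 is 2-fold, and they compare arrays for a gene and never genes with each other. A gene was called when its adjusted p (limma, Benjamini-Hochberg over all genes tested) was under 0.05. UCA1 itself fell by 5.04 (standard error 0.29, adjusted p = 0.000122), from 7.48 to 8.60 on the sictrl arrays to 2.59 to 3.68 on the siUCA1 arrays. The 75th percentile signal was 107.5 to 134.5 on the sictrl arrays and 106.5 to 118.2 on the siUCA1 arrays, with 20858 to 24039 spots well above background on each array, and no spot was saturated. On sictrl A3 and siUCA1 A1, both in column 2 of the slide, a trend across the array surface had a root mean square of 0.321 and 0.287, against 0.0737 to 0.0943 on the other 6 arrays. Members whose call rested on these 2 arrays are given with and without them. Without them 24.3% of all genes tested were called, beside 11.6% with them. Of the 10 epithelial ovarian markers examined, 8 were measured, of which CDH1 was lower (log2 fold change -0.81, adjusted p = 0.0149) and the others were not called, and MUC16 and WT1 were not well above background on any array. Markers of other cells were mostly at background, with CD14 (log2 fold change 0.70, adjusted p = 0.0478) and VWF (-0.08) the only ones tested. The arrays read RNA of whole cultures, in which fewer cells expressing a gene and less of its RNA in each cell cannot be told apart.

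Among the 45 members tested, 9 were called, 5 higher and 4 lower in siUCA1. BECN1 fell most, by 2.96-fold, and ATG4A, ATG7 and MCOLN1 were also lower, while CTSL, PIK3C3, ULK1, NPC1 and ATG4D were higher by 1.28-fold to 1.58-fold. The 9 calls were 20.0% of the members tested, beside 11.6% of all genes (1788 of 15454). Higher calls were 11.1% of members beside 5.72% of all genes, and lower calls were 8.89% beside 5.85%. In 13 members (28.9%, beside 20.8% of all genes) the 4 siUCA1 arrays did not overlap the 4 sictrl arrays, 8 of them higher and 5 lower. The median log2 fold change of the members was 0.08, and that of all genes was 0.03. No direction was shared by the whole list, since 28 members had a positive and 17 a negative log2 fold change, and with scaling to the array median 20 were positive and the median was -0.01.

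**Figure D1:**
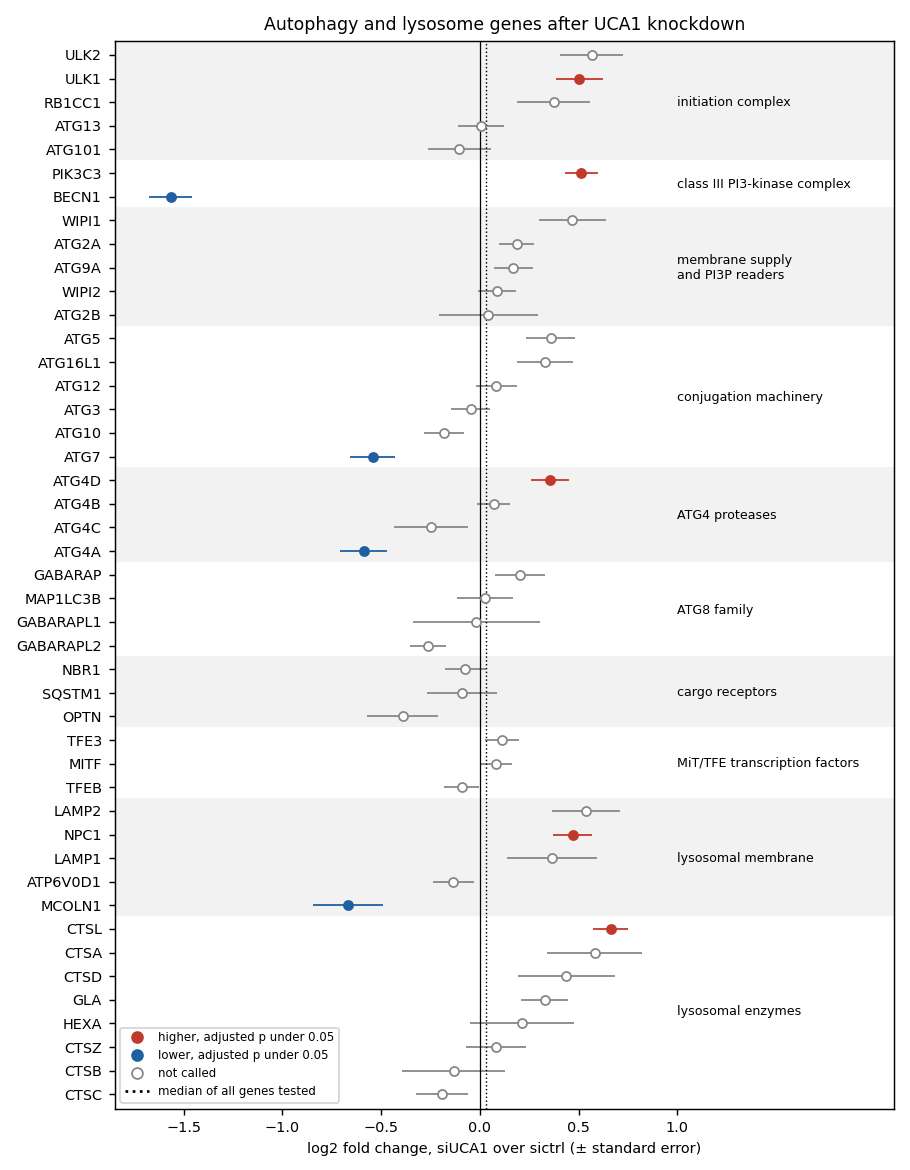
Log2 fold change of siUCA1 over sictrl (x axis, points with standard errors, 4 arrays against 4) for the 45 members tested (y axis), grouped by role. Filled points are the 9 called members, 5 higher and 4 lower; BECN1 at -1.57 lies apart from all others, and the dotted line marks the median of all genes tested, 0.03.

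The lipid kinase complex held both the largest decrease and 1 of the clearest increases. BECN1 (NM_003766), the Beclin 1 subunit that holds the complex together, was at 3.07, 3.24, 3.26 and 3.29 on the sictrl arrays A1, M2, A2 and A3, and at 1.77, 1.62, 1.42 and 1.77 on the siUCA1 arrays in the same order. Its lowest sictrl array lay well above its highest siUCA1 array, and each condition was tight. BECN1 thus fell by 1.57 (standard error 0.11, limma adjusted p = 0.000382), a 2.96-fold decrease, and stood at rank 9 of the 15454 genes by p. Since the groups did not overlap, an exact two-sided permutation test could give only its smallest p for 4 against 4 arrays (0.0286). PIK3C3 (NM_002647), the catalytic subunit VPS34, was at 2.15, 2.18, 2.30 and 2.26 in sictrl and at 2.75, 2.76, 2.76 and 2.67 in siUCA1. The groups did not overlap, and PIK3C3 was higher by 0.51 (standard error 0.08, limma adjusted p = 0.00778), or 1.43-fold. Subunits of the same complex therefore changed in opposite directions at the RNA level.

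Within the 4 slide columns, which hold 1 array of each condition, the BECN1 difference ranged from -1.81 to -1.29, and within the slide rows it was -1.47 and -1.66. The PIK3C3 difference within columns ranged from 0.47 to 0.58. Since the groups of both genes did not overlap, the signs of these differences were fixed and only their sizes are new. The alternative partners of Beclin 1 could not be tested. ATG14, which directs the complex to forming autophagosomes, rose well above background on 1 sictrl array of the 4 and on no siUCA1 array. UVRAG, its counterpart in endosome and autophagosome maturation, reached that level on 2 of 4 arrays in each condition, between -2.55 and -2.31 in sictrl and between -2.06 and -1.49 in siUCA1, so that no fold change is given.

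**Figure D2:**
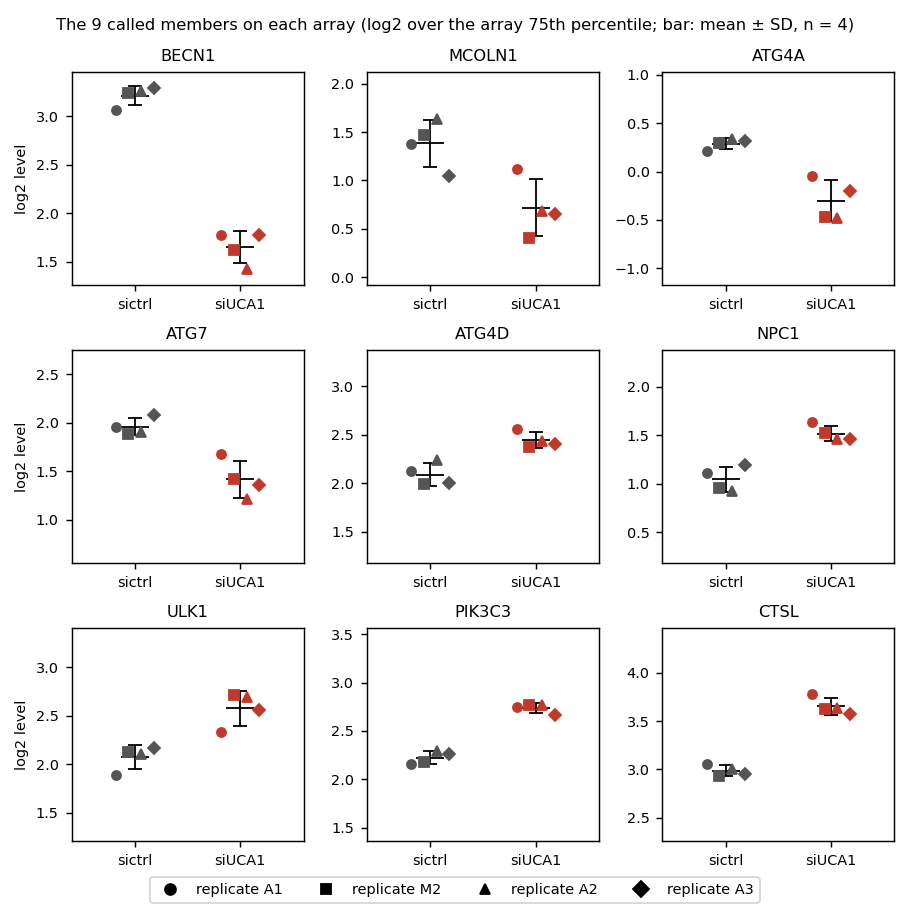
Log2 level over the 75th percentile of the array (y axis) in sictrl and siUCA1 (x axis) for the 9 called members, 1 symbol per replicate name, with the mean and SD of 4 arrays; every panel spans the same height. Groups are apart in 8 panels, and in MCOLN1 the siUCA1 A1 array (1.12) lies above the sictrl A3 array (1.05).

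In the initiation complex, ULK1 rose and no other member was called. ULK1 (NM_003565), the protein kinase that is activated when nutrients are short, was at 1.89, 2.13, 2.11 and 2.17 in sictrl and at 2.33, 2.72, 2.70 and 2.56 in siUCA1. Its lowest values in both conditions came from replicate A1, and the groups did not overlap. The increase was 0.50 (standard error 0.12, limma adjusted p = 0.0291), or 1.42-fold, but the call was lost when the array column was added as a block (adjusted p = 0.0588). Its relative ULK2 stood 0.57 higher without passing (adjusted p = 0.0525), and its sictrl A3 array (1.91) lay above siUCA1 A1 (1.80). It passed under 7 of 16 other settings, some of which kept both arrays. Without these 2 arrays ULK2 was higher by 0.79 (limma adjusted p = 0.00313). The scaffold RB1CC1 was at 2.70 to 2.92 in sictrl and at 2.90 to 3.73 in siUCA1, its highest value being siUCA1 A1 (log2 fold change 0.37, adjusted p = 0.230). ATG13 (0.01) and ATG101 (-0.10), which link the kinase to the scaffold, were not called.

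Genes that supply membrane or read PI3P had log2 fold changes from 0.04 to 0.47, of which the lowest, WIPI2 and ATG2B, turned negative with scaling to the array median, and none of the 5 was called. WIPI1 (NM_017983), a PI3P-binding propeller protein, was at 2.26, 2.64, 2.68 and 3.13 in sictrl and at 3.08, 3.08, 3.21 and 3.23 in siUCA1. The siUCA1 arrays were close together whereas sictrl spread widely, sictrl A3 reaching into the siUCA1 range. Its log2 fold change was 0.47 (standard error 0.17, limma adjusted p = 0.110), and 0.64 (adjusted p = 0.0164) without sictrl A3 and siUCA1 A1. ATG2A (NM_015104), which transfers lipids into the growing membrane, was at 4.92, 4.99, 5.08 and 5.05 in sictrl and at 5.09, 5.16, 5.28 and 5.26 in siUCA1. These values did not overlap by a narrow margin (log2 fold change 0.19, standard error 0.09, adjusted p = 0.212). The lipid scramblase ATG9A (0.17), WIPI2 (0.09) and ATG2B (0.04) overlapped between conditions.

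Of the 6 genes of the conjugation machinery, ATG7 fell, and ATG5 and ATG10 did not overlap between conditions without being called. ATG7 (NM_006395) encodes the E1-like enzyme that activates both ATG12 and the ATG8 proteins, and it was at 1.96, 1.89, 1.90 and 2.08 in sictrl and at 1.67, 1.42, 1.22 and 1.35 in siUCA1. All siUCA1 arrays were lower, A1 the least so. ATG7 fell by 0.54 (standard error 0.12, limma adjusted p = 0.0202), or 1.46-fold, on its brighter probe. A second, dimmer ATG7 probe for the same transcript was at -0.40, -0.63, -0.62 and -0.37 in sictrl and at -0.45, -0.33, -0.49 and -0.01 in siUCA1, which is 0.19 higher (adjusted p = 0.396). The probes thus disagreed in sign, and the mean of both gave -0.18 (limma adjusted p = 0.307), which ends the call.

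ATG5 (NM_004849), which is joined to ATG12, was at 2.61, 2.63, 2.59 and 2.26 in sictrl and at 3.09, 2.83, 2.71 and 2.91 in siUCA1. Its sictrl A3 array lay far below the other sictrl arrays, and the log2 fold change of 0.36 (standard error 0.12, limma adjusted p = 0.0982) became 0.20 (adjusted p = 0.116) without sictrl A3 and siUCA1 A1. A second ATG5 probe gave -0.12. ATG10 (NM_031482), the E2-like enzyme that acts on ATG12, was at 0.27, 0.61, 0.35 and 0.29 in sictrl and at 0.21, 0.21, 0.24 and 0.15 in siUCA1. The siUCA1 values lay just below the lowest sictrl value (log2 fold change -0.18, standard error 0.10, adjusted p = 0.290). ATG16L1, which brings the conjugate to the membrane, differed by 0.33 (adjusted p = 0.168), and ATG12 (0.08) and the E2-like enzyme ATG3 (-0.05) were close to 0.

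The ATG4 proteases, which trim ATG8 proteins before conjugation and release them from lipid afterwards, included 1 gene called in each direction. ATG4A (NM_052936), which acts mainly on the GABARAP branch, was at 0.21, 0.30, 0.33 and 0.31 in sictrl and at -0.05, -0.47, -0.48 and -0.20 in siUCA1. The sictrl arrays were within a narrow range and all siUCA1 arrays were below them. ATG4A fell by 0.59 (standard error 0.12, limma adjusted p = 0.0164), or 1.50-fold. ATG4D (NM_032885) was at 2.12, 1.99, 2.24 and 2.00 in sictrl and at 2.56, 2.37, 2.44 and 2.40 in siUCA1. It was higher on every siUCA1 array, by 0.35 (standard error 0.10, limma adjusted p = 0.0474), a value at the edge of the threshold: leaving out any 1 of the 8 arrays gave an adjusted p of 0.0662 to 0.139. Without sictrl A3 and siUCA1 A1 the increase was 0.29 (limma adjusted p = 0.0606). ATG4B, the most active of the family, had a log2 fold change of 0.07, and ATG4C, at -0.25, was measured above background on every sictrl array but on 2 of the 4 siUCA1 arrays.

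None of the ATG8 family, cargo receptors or MiT/TFE transcription factors was called. GABARAPL2 (NM_007285), also known as GATE-16, was at 2.27, 2.27, 2.34 and 2.12 in sictrl and at 1.97, 1.93, 2.00 and 2.06 in siUCA1. The siUCA1 arrays lay below all sictrl arrays, with sictrl A3 the nearest, and the log2 fold change was -0.26 (standard error 0.09, limma adjusted p = 0.0939). Without sictrl A3 and siUCA1 A1 it was -0.30 (adjusted p = 0.0345). MAP1LC3B, the LC3 protein that is most often used to count autophagosomes, was at 2.18 to 2.77 in sictrl and at 2.41 to 2.73 in siUCA1 (0.03), and its relative MAP1LC3A was not well above background on any array. GABARAP differed by 0.20 (adjusted p = 0.345), and by 0.36 (adjusted p = 0.0378) without these 2 arrays. GABARAPL1, at -0.02, spread from 1.41 to 2.84 within sictrl alone.

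Among the cargo receptors, OPTN (NM_001008211), which binds ubiquitin on damaged mitochondria and bacteria, was at -0.33, 0.24, -0.03 and 0.59 in sictrl and at -0.24, -0.33, -0.32 and -0.20 in siUCA1. The siUCA1 arrays were alike and the sictrl arrays scattered, so that the log2 fold change of -0.39 (standard error 0.18, limma adjusted p = 0.201) was not called. SQSTM1, the p62 receptor that is itself degraded by autophagy, was at 6.83 to 7.08 in sictrl and, apart from siUCA1 A1 at 6.28, at 6.99 to 7.09 in siUCA1 (log2 fold change -0.09). NBR1, which shares its domain order, had a log2 fold change of -0.07.

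TFE3 (NM_006521) was at 1.90, 1.71, 1.82 and 1.78 in sictrl and at 1.88, 1.99, 1.88 and 1.91 in siUCA1. The groups overlapped (log2 fold change 0.11, standard error 0.09, limma adjusted p = 0.439), and a second TFE3 probe gave -0.27. MITF (0.08) and TFEB (-0.09) were likewise close to 0. These factors are regulated mainly by their movement between lysosome and nucleus, which arrays do not measure. They bind the CLEAR element, whose core is CACGTG, and which was searched also in the longer form TCACGTGA that contains this core. Both letter strings read the same on either strand. RefSeq promoter windows (build GRCh38.p14, 250 bases before to 50 after the start) were matched for 41 of the 48 members, 51 windows in all. CACGTG occurred in the windows of 7 members (13.7% of windows), beside 7.26% of 35116 windows of all genes and 9.50% of windows of genes tested here. TCACGTGA occurred in the windows of 5 members (9.80%), beside 0.980% and 1.66%.

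The 5 members with TCACGTGA were LAMP1, CTSA, MCOLN1, ATP6V0D1 and ATG3, and CTSD and ATG14 held the core alone. Their log2 fold changes had no common direction: 0.37 for LAMP1, 0.58 for CTSA, 0.44 for CTSD, -0.13 for ATP6V0D1, -0.05 for ATG3 and -0.67 for MCOLN1, the last of which was the only called gene among them. The 4 lysosomal promoters with TCACGTGA are shown from 200 bases before the start to 6 bases after it, together with that of BECN1, the member that changed most and whose window had no match. Capitals mark each CACGTG.
LAMP1 (chr13:113297039-113297244, plus strand): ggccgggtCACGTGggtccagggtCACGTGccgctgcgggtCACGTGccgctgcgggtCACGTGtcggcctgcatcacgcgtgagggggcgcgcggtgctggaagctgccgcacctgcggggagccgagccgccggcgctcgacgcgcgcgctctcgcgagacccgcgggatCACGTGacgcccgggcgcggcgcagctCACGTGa
CTSA (chr20:45891135-45891340, plus strand): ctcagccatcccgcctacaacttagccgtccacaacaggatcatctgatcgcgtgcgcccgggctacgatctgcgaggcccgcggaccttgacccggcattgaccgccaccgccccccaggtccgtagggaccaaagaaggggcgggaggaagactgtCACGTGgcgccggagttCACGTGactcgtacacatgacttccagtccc
MCOLN1 (chr19:7522424-7522629, plus strand): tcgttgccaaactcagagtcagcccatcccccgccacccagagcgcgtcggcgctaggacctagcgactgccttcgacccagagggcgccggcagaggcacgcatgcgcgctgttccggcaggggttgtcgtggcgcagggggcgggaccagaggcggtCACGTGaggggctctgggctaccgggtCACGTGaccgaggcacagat
ATP6V0D1 (chr16:67481152-67481357, minus strand): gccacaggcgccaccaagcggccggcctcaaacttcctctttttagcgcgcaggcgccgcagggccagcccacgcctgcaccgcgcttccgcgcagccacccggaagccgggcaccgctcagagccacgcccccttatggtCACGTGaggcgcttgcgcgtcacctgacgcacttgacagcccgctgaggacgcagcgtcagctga
BECN1 (chr17:42823874-42824079, minus strand): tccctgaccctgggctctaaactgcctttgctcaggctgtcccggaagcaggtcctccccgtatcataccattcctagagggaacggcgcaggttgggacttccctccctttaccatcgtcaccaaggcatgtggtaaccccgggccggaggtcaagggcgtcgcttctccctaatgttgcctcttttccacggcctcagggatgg
LAMP1 held the core 6 times, CTSA and MCOLN1 2 times each and ATP6V0D1 once. A match describes letters in the window and shows no binding in these cells.

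On the lysosomal membrane, NPC1 rose and MCOLN1 fell. NPC1 (NM_000271), which exports cholesterol from the lysosome, was at 1.11, 0.95, 0.92 and 1.19 in sictrl and at 1.63, 1.52, 1.46 and 1.46 in siUCA1. The groups were clearly apart. The increase was 0.47 (standard error 0.10, limma adjusted p = 0.0190), or 1.39-fold, and it ranged from 0.34 to 0.59 within the slide columns. MCOLN1 (NM_020533), the calcium channel TRPML1, was at 1.38, 1.47, 1.63 and 1.05 in sictrl and at 1.12, 0.41, 0.68 and 0.66 in siUCA1. Here sictrl A3 and siUCA1 A1 crossed, so that the groups overlapped. MCOLN1 fell by 0.67 (standard error 0.18, limma adjusted p = 0.0424, exact permutation p = 0.0571), or 1.59-fold. In slide column 2, which holds just those 2 arrays, it differed by 0.07, and without them it fell by 0.91 (limma adjusted p = 0.00406). With the slide column as a block the call was lost (adjusted p = 0.109).

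LAMP1 and LAMP2 encode the abundant glycoproteins that line the membrane, and neither was called. LAMP1 was at 6.31, 6.23, 6.43 and 7.20 in sictrl and at 6.87, 6.56, 7.00 and 7.20 in siUCA1. Its sictrl A3 value reached that of the highest siUCA1 array, and the log2 fold change was 0.37 (standard error 0.23, limma adjusted p = 0.340). LAMP2 was read by probes assigned by accession to 3 transcripts that differ in their last exon. Without the probe sequences it was not checked whether each probe lies in that exon. The brightest probe, assigned to LAMP2C (NM_001122606), was at 2.81, 2.83, 2.82 and 3.45 in sictrl and at 3.55, 3.32, 3.40 and 3.78 in siUCA1 (log2 fold change 0.54, standard error 0.17, adjusted p = 0.0793). The probe for LAMP2B (NM_013995) was at 0.28, 0.41, 0.16 and 0.61 in sictrl and at 1.00, 0.97, 1.04 and 1.16 in siUCA1. Those groups did not overlap, and over all 19045 kept probes, of which 11.5% were called, this probe was higher by 0.68 (limma adjusted p = 0.00960). The probe for LAMP2A (NM_002294), the receptor of chaperone-mediated autophagy, was at -0.89, -1.16, -1.23 and -0.80 in sictrl and at -0.99, -1.49, -0.86 and -0.99 in siUCA1, with a log2 fold change of -0.06 (limma adjusted p = 0.850).

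The LAMP2 probes were also compared within each array. The LAMP2B probe moved by 0.74 more than the LAMP2A probe, and the LAMP2C probe by 0.60 more (exact permutation p = 0.0286 for each, 0.0821 after Benjamini-Hochberg over the 23 probe pairs of 17 members). The pair differences therefore did not pass the correction, and 4 arrays against 4 cannot give a smaller p. ATP6V0D1, a subunit of the proton pump that acidifies the lysosome, was not called (log2 fold change -0.13, adjusted p = 0.452).

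Of the 8 lysosomal enzymes, CTSL was called. CTSL (NM_001912), the cysteine protease cathepsin L, was at 3.06, 2.93, 3.01 and 2.95 in sictrl and at 3.78, 3.62, 3.63 and 3.57 in siUCA1. The spread within each condition was small beside the gap between them. CTSL was higher by 0.66 (standard error 0.09, limma adjusted p = 0.00388), or 1.58-fold, the largest called increase among the members, and by 0.51 to 0.83 within the slide columns. GLA (NM_000169), the alpha-galactosidase A that is deficient in Fabry disease, was at 5.41, 5.27, 5.34 and 5.15 in sictrl and at 5.43, 5.50, 5.70 and 5.84 in siUCA1. The groups just failed to overlap (log2 fold change 0.33, standard error 0.12, limma adjusted p = 0.109).

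CTSA, which protects other lysosomal glycosidases as well as cutting peptides, was at 5.40, 5.38, 5.61 and 6.18 in sictrl and at 5.92, 5.89, 6.35 and 6.76 in siUCA1 (log2 fold change 0.58, adjusted p = 0.156). The aspartic protease CTSD was at 4.66, 4.51, 4.78 and 5.72 in sictrl and at 5.32, 5.19, 5.45 and 5.47 in siUCA1 (0.44, adjusted p = 0.286). In both genes the sictrl arrays other than A3 lay below every siUCA1 array, and A3 lay among them or above. The same array stood highest within sictrl for LAMP1, LAMP2, HEXA, CTSB and CTSC, from 0.32 above the sictrl mean in CTSC to 0.81 in CTSD. Within siUCA1 the A3 array was likewise the highest in CTSA (1.11 above the sictrl mean), CTSD (0.55), LAMP1 (0.66), LAMP2 (0.81), HEXA (0.80), CTSB (0.42) and CTSC (-0.01). In these genes the array named A3 was thus the highest of its condition in both. The surface trend had a root mean square of 0.321 on sictrl A3 and 0.0943 on siUCA1 A3, and the cause was not tested. Sictrl A3 was not high in CTSL (-0.04), CTSZ (0.03) or GLA (-0.15).

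Without sictrl A3 and siUCA1 A1, but with the high siUCA1 A3 array kept, 4 of these genes were called: CTSA at 0.87 (limma adjusted p = 0.0295), CTSD at 0.72 (0.00833), LAMP1 at 0.60 (0.0428) and LAMP2 at 0.68 (0.0136). That fit called 24.3% of all genes tested, beside 11.6% in the reported analysis. With all arrays kept and the fitted surface trend removed, none of the 4 was called, at 0.57 for CTSA (adjusted p = 0.182), 0.56 for CTSD (0.115), 0.38 for LAMP1 (0.197) and 0.50 for LAMP2 (0.0938). Over 16 other settings CTSA and LAMP2 were each called under 3, and CTSD and LAMP1 under 2. The replicate name as a block was among the settings that called CTSA and LAMP2. The remaining enzymes were HEXA (0.21), whose product takes part in splitting gangliosides, CTSZ (0.08), CTSB (-0.13) and CTSC (-0.19), and none was called.

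**Figure D3:**
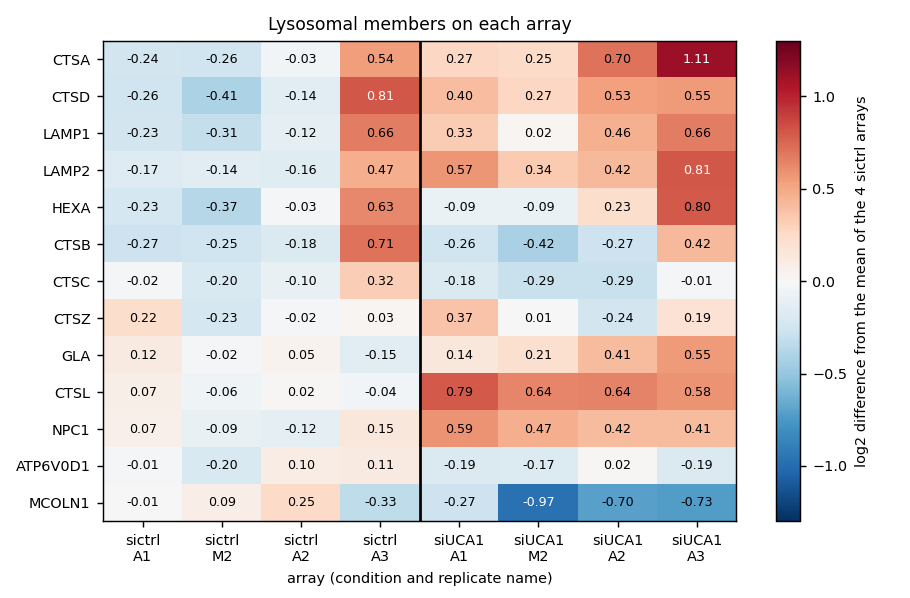
Log2 difference of each array (columns, sictrl to the left of the line) from the mean of the 4 sictrl arrays for the 13 lysosomal members (rows), red above and blue below that mean. CTSL and NPC1 are red on all 4 siUCA1 arrays and pale on sictrl, whereas CTSD, CTSB, LAMP1 and HEXA are red on sictrl A3, by 0.63 to 0.81.

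Other genes of the pathway were placed on 5 lists by function. Of 105 tested, 14 were called higher (13.3%, beside 5.72% of all genes) and 5 lower (4.76%, beside 5.85%), and their median log2 fold change was 0.23, beside 0.03 over all genes. With scaling to the array median these medians were 0.13 and -0.07, and 1 gene was called higher and 3 lower. That scaling called 3.46% of all genes in either direction. Among 17 genes of lysosomal nutrient sensing, which pass amino acid levels to mTORC1, 4 were called and all were higher (23.5%, beside 5.72% of all genes). FNIP2, a folliculin partner that controls the Rag GTPases, rose by 1.45 (standard error 0.15, limma adjusted p = 0.00166), its relative FNIP1 by 0.51, the mTORC1 inhibitor TSC1 by 0.62 and the GTPase RRAGD by 0.39. Folliculin itself (FLCN, -0.12) and MTOR (-0.10) were not called.

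The 32 further lysosomal enzymes and activators had a median of 0.25, and 28 of them had a positive log2 fold change (24 with scaling to the array median). Over all genes, 8369 of 15454 were positive in the reported analysis. Higher calls were 12.5% of this list, beside 5.72% of all genes, and lower calls were 6.25%, beside 5.85%. ASAH1, the acid ceramidase, rose by 0.67, the protease CTSK by 0.61 and the asparaginyl protease LGMN by 0.43. The sulfatases IDS and SGSH, which act on heparan sulfate, fell by 0.84 and 0.67 (limma adjusted p = 0.00376 and 0.00680). On the list of lysosomal membrane and sorting genes, 2 of 16 were higher, the sialic acid exporter SLC17A5 (0.61) and the sorting receptor SORT1 (0.45), and 2 were lower, LAPTM4A (-0.99, adjusted p = 0.00398) and the endolysosomal channel TPCN1 (-0.51). These were 12.5% of the list in each direction, beside 5.72% of all genes called higher and 5.85% called lower. Like MCOLN1, TPCN1 conducts cations out of the lysosome.

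Of 16 subunits of the V-ATPase, ATP6AP1 (0.46) and ATP6V0B (0.31) were higher and ATP6V0E2 (-0.58) was lower. These were 18.8% of that list, beside 11.6% of all genes called in either direction. Among 24 other genes of the autophagy machinery, 2 were higher, the receptor for endoplasmic reticulum RETREG1 (0.76) and the fusion adaptor PLEKHM1 (0.50), and none was lower. These calls were 8.33% of that list, beside 11.6% of all genes called in either direction. PIK3R4, the regulatory subunit that sits beside PIK3C3 and BECN1, was not called (log2 fold change 0.11, adjusted p = 0.542). With the slide column as a block, 5 of the 105 genes were higher in place of 14, and without sictrl A3 and siUCA1 A1, 34 were. Under these settings 8.26% and 24.3% of all genes were called in either direction, in place of 11.6%.

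**Figure D4:**
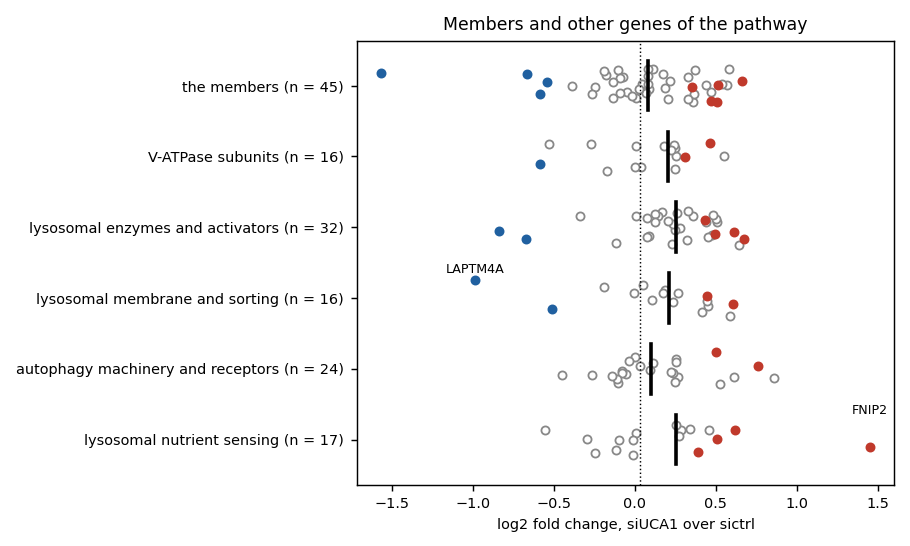
Log2 fold change of siUCA1 over sictrl (x axis) for the 45 members and the 105 other pathway genes by list (y axis), with points moved apart at random in height; red is called higher, blue is called lower, and the black bar is the median of the list. FNIP2 at 1.45 and BECN1 at -1.57 are the ends of the plot, and the dotted line is the median of all genes, 0.03.

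The 9 calls differed in how far they depended on the analysis. BECN1 was called under each of the 16 other settings (log2 fold change -1.66 to -1.45) and with any 1 array left out (-1.61 to -1.49). CTSL and PIK3C3 were called under 13 of the 16 settings and with any 1 array left out. NPC1 and ATG4A were called under 13 settings and in 4 of the 8 fits with 1 array left out, ULK1 and ATG7 under 12 and in 2, MCOLN1 under 11 and in 2, and ATG4D under 7 and in none. Scaling to the array median, another background correction and testing all probes without a detection filter each left BECN1 as the only called member. In the same order, 3.46%, 2.46% and 0.159% of all genes were called. The signs of the 9 were the same under all settings.

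**Figure D5:**
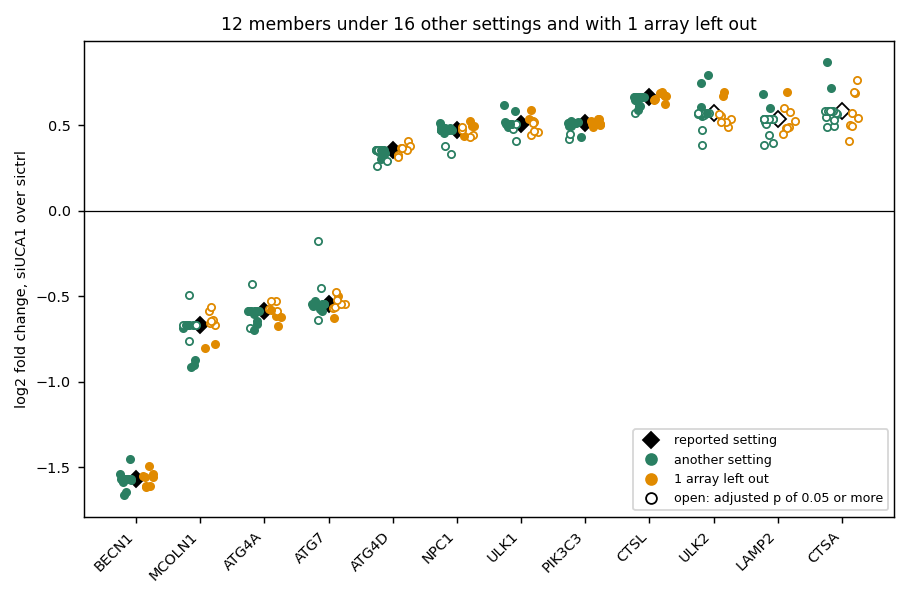
Log2 fold change of siUCA1 over sictrl (y axis) for the 9 called members and the 3 uncalled members with the highest values (x axis) in the reported analysis (diamonds), under 16 other settings (green) and with 1 of the 8 arrays left out (orange). Filled symbols have an adjusted p under 0.05; BECN1 is filled throughout, from -1.66 to -1.45, and ATG4D is open in all fits with 1 array left out.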

How the data were processed

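Per the labels and file headers, RNA of OAW42-R cells was hybridised in 1 colour to 8 Agilent arrays, and the deposited intensity is the processed signal of Agilent Feature Extraction 10.7.3.1, background-subtracted by the authors' scanner software. The deposited value table of the series held the same intensity values and was used only for that check. Control spots were dropped, log2 intensity was centred on the 75th percentile of each array, spots with outlier flags were removed and spots of a probe were averaged. Probes well above background on all 4 arrays of a condition were kept (19045 of 58201), named through RefSeq accessions, and the brightest probe stood for a gene (15454 genes). The filter admits a gene measured in 1 condition only, which among members concerned ATG4C. siUCA1 was compared with sictrl over all genes by limma 3.58.1 in R 4.3.3 (lmFit and eBayes), the test that the methods of the study name, here without a block, which they do not mention, and with Benjamini-Hochberg adjustment and a threshold of 0.05. These steps were tested on simulated data with known changes. For single members and probe pairs, two-sided exact permutation tests over the 8 arrays were used, whose smallest p is 0.0286. The number of arrays limits the precision. Arrays were grouped by their labels. Described in full were called members, uncalled members whose groups did not overlap and, where a role had no call, its member with the highest absolute log2 fold change. On each further list the called genes were named, except 1 that is not reported here, and FLCN, MTOR and PIK3R4 were chosen after their values were seen. The members, the lists and the tests were chosen with earlier results of these data known. Alternatives concerned scaling, background correction, filters, probe summary, blocks, array weights and omitted arrays.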

Additional observations from a re-analysis of the deposited data

Results flagged for a closer look

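In 2 of the 36 sets of 4 arrays examined for the members described in full and UCA1, 1 array lay far from the others of its condition, beyond the critical value of Dixon's test for 4 samples. Chance gives this in about 5% of sets. PIK3C3 on siUCA1 A3 was at 2.67, against 2.75 to 2.76 on the other siUCA1 arrays (gap over range 0.864), and still lay above all sictrl arrays. ATG5 on sictrl A3 was at 2.26, against 2.59 to 2.63 on the other sictrl arrays (0.895). This array also had the highest surface trend.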

How the results depend on the processing

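Over 16 other settings the members' log2 fold changes kept their sign and call in 631 of 719 cases, lost the call in 34 and gained it in 26, and no called member changed sign. Slide column as a block, and only that setting, was chosen after seeing the data. Members called higher (5) were 0 with median scaling, with normexp and without the detection filter, 8 with the surface trend removed, 3 with the slide column as a block, 13 with array weights and 11 without sictrl A3 and siUCA1 A1. Members called lower (4) were 1 with median scaling, normexp and no filter. Genes called in all (1788) were 535, 380 and 76 under these 3 settings, 4599 with array weights and 3878 without both arrays. With the slide row as a block they were 1270, and with the slide column 1276. The members' median (0.08) was -0.012 with median scaling, where the median of all genes was -0.07, 0.028 with the surface trend removed and 0.15 without both arrays. With median scaling 21.3% of calls were higher, against 49.4%, and with normexp and without the filter 39.5% each. Other pathway genes called higher (14) were 1 with median scaling, normexp and no filter, 7 with the slide row and 5 with the slide column as a block, 39 with array weights and 34 without both arrays, and those called lower (5) were 3, 1 and 0 under the first 3. Array weights and the omission of both arrays give arrays that stand apart less or no weight, and the filter changes how many genes are tested (47753 without it). For the other settings the cause was not tested.

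With 1 array left out, members called higher ranged from 2 to 9 and lower from 1 to 5, genes called from 760 (without sictrl A2) to 2290 (without siUCA1 A1), other pathway genes higher from 3 to 22 and lower from 4 to 6, the members' median from 0.076 to 0.11, and UCA1 from -5.28 to -4.85. All but BECN1, CTSL and PIK3C3 lost the call without sictrl M2, sictrl A2, siUCA1 M2 or siUCA1 A2.

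Signs turned only in uncalled members. With median scaling these were ATG12 (-0.012), ATG13 (-0.090), ATG2B (-0.054), ATG4B (-0.026), CTSZ (-0.012), MAP1LC3B (-0.069), MITF (-0.012) and WIPI2 (-0.0099). With the percentile over detected probes ATG13 was at -0.011, with normexp ATG2B at -0.086 and MAP1LC3B at -0.027, and with the surface trend removed MAP1LC3B at -0.030. The mean of kept probes gave ATG4B -0.13, MITF -0.059, TFE3 -0.078 and WIPI2 -0.017. Array weights gave ATG13 -0.068, ATG2B -0.27, GABARAPL1 0.18 and SQSTM1 0.065. Without sictrl A3 and siUCA1 A1, ATG13 was at -0.099, ATG2B at -0.29, ATG4C at 0.25, CTSB at 0.15, CTSZ at -0.0051, GABARAPL1 at 0.44, NBR1 at 0.015 and SQSTM1 at 0.068. With 1 array left out, the ranges that crossed 0 were -0.22 to 0.018 for ATG101, -0.066 to 0.088 for ATG13, -0.23 to 0.15 for ATG2B, -0.32 to 0.25 for ATG4C, -0.32 to 0.10 for CTSB, -0.014 to 0.19 for CTSZ, -0.24 to 0.24 for GABARAPL1, -0.086 to 0.11 for MAP1LC3B and -0.17 to 0.096 for SQSTM1.

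Arrays of the same replicate name deviated together only in part (r = 0.04 for A1, 0.28 for M2, 0.22 for A2 and 0.13 for A3), and since that of A1 was close to 0 the names were not taken as pairs. The siUCA1 arrays M2, A2 and A3 correlated best with the sictrl array of their own name, but siUCA1 A1 correlated best with sictrl A3 (0.18). With the replicate name as a replicate block, 1727 genes and again 9 members were called, with CTSA (0.58, limma adjusted p = 0.0222) and LAMP2 (0.54, 0.0319) in place of ATG4D (0.0587) and MCOLN1 (0.0638).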
